A study of Mus musculus with 18 samples.

Results

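The 10 genes described here, Plin2, Plin3, Hilpda, Soat1, Dgat1, Dgat2, Nceh1, Lipa, Pnpla2 and Lipe, encode droplet coats, lipid-esterifying acyltransferases, and neutral and acid lipases. They were taken by symbol from a table of 21831 rows, each was found once, and all 10 were among the 13409 genes that could be tested. RNA came from thioglycollate-elicited peritoneal macrophages of C57BL/6 mice aged 6 weeks, collected 3 days after 1 mL of 3% thioglycollate. The cells were left to attach for 4 h and treated for 12 h, and the 18 libraries formed 4 groups. The dMye_PCN group (n = 6) had PXR deleted in myeloid cells and received 20 µM pregnenolone 16alpha-carbonitrile (PCN), a ligand of the rodent nuclear receptor PXR. The dMye_DMSO group (n = 6) had that genotype and received the solvent dimethyl sulfoxide. The FF_PCN and FF_DMSO groups (n = 3 each) had floxed PXR alleles and received the same agents. All 4 groups shared a further gene deletion, so none of them stands for a macrophage of a wild-type mouse. The Cre line is not named, and nothing states that libraries of a group were separate animals or cultures. The p-values thus reflect how far these libraries vary, in part perhaps for technical reasons, and library numbers are names only.

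A lipid droplet is a core of triglyceride and cholesteryl ester inside a phospholipid layer that is covered with proteins such as the perilipins. In macrophages, cholesterol from engulfed lipoproteins is freed in the lysosome by the acid lipase LIPA, esterified again in the endoplasmic reticulum by SOAT1, stored in droplets, and freed from them by neutral hydrolases, of which NCEH1 is one. Triglyceride is made by DGAT1 and DGAT2 and broken down by PNPLA2 (ATGL) and then LIPE (hormone-sensitive lipase), and cells filled with such droplets are the foam cells of arterial plaques.

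Promoters are shown for Lipa, the member called with PCN in both genotypes, and for Plin2, Hilpda and Nceh1, which were lower in dMye libraries under both agents. Pnpla2 was lower under both agents too, and its window, not shown, held none of the letters marked below. Each window runs from 250 bases before to 50 bases after a transcription start, as given by RefSeq on build GRCm38.p6. It is written 5′ to 3′ on the gene's strand. Capitals mark the letters CACGTG (an E-box), ACGTG (the core of a hypoxia response element, which CACGTG contains) and AGGTCA (a core site of nuclear receptors, here on the other strand). The windows are chr19:34527425-34527724 (minus strand) for Lipa, chr4:86670010-86670309 (minus strand) for Plin2, chr6:29272376-29272675 (plus strand) for the second listed start of Hilpda, and chr3:27182754-27183053 (plus strand) for Nceh1.
Lipa: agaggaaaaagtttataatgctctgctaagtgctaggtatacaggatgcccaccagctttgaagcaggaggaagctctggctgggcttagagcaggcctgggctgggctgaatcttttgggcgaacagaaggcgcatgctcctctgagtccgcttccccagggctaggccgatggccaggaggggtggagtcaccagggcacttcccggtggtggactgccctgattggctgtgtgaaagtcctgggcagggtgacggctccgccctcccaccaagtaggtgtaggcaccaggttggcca
Plin2: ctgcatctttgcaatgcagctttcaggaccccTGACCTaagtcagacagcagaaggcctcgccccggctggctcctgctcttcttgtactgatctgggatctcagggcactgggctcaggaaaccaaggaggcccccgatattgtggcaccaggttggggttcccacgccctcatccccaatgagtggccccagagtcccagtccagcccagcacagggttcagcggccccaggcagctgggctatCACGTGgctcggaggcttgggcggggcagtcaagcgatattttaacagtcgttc
Hilpda: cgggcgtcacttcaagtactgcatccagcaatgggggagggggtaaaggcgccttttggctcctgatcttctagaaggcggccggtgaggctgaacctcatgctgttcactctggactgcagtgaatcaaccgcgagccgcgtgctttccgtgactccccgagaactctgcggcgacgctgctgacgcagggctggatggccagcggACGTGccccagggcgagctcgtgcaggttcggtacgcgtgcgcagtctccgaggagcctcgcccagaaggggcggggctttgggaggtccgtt
Nceh1: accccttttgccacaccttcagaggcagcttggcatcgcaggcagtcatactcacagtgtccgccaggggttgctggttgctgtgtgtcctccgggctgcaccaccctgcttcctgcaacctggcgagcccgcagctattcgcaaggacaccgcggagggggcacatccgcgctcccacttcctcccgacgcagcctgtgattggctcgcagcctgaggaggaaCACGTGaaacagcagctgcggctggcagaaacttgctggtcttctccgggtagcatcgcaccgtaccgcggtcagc
Of 6 sets of letters searched on both strands, the Lipa window held none. The E-box lay at bases -4 to 2 of Plin2 and at -26 to -21 of Nceh1, and 7.15% of all 32851 promoters in the table held it. The hypoxia core without an E-box lay at -43 to -39 of the second Hilpda start, and 19.6% of all promoters held those letters. The window of the first Hilpda start, not shown, held none of the 6 sets. The nuclear receptor core lay at -218 to -213 of Plin2 and is held by 16.3% of all promoters. Of the other members in the table, Soat1, Plin3 and Pnpla2 held none, and Lipe held the E-box at its first start and AGTTCA, a second receptor core that 14% of all promoters hold, at its second. The core of the lysosomal CLEAR element (TCACGTGA, in 0.974% of all promoters, an extension of the E-box) was in no member's window. Neither was the sterol regulatory element (TCACNCCAC, in 1.24%). Starts of 8 of the 10 genes were in the table, those of Dgat1 and Dgat2 not.

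Library totals ran from 21993697 to 30228017 counts, so that 1 CPM (the usual count relative to library size, scaled by TMM factors of 0.967 to 1.04) stood for 22 to 30.2 counts. The first principal component carried 42% of the variance and parted the genotypes. Library dMye_DMSO 5 stood apart from its group, with a chi-square per gene of 20.8 to 43.7 against the other 5 libraries, which gave 4.92 to 24 among themselves. Leaving out dMye_DMSO 5 changed no member's call. Library dMye_PCN 5 stood apart too, at 11.1 to 29.8, where the rest of its group gave 3.75 to 10.7 among themselves. Without dMye_PCN 5, Plin2 was called lower with PCN in dMye (adjusted p = 0.021). Nr1i2, which encodes PXR, had 3, 2, 1 and 2 counts in all over dMye_PCN, dMye_DMSO, FF_PCN and FF_DMSO, so the deletion could not be checked. Sex followed genotype: the Y-linked Ddx3y averaged 0.227 and 0.0164 CPM in dMye_PCN and dMye_DMSO, against 59.3 and 46.6 CPM in FF_PCN and FF_DMSO, and Eif2s3y, Kdm5d and Uty were likewise far lower in dMye. In every dMye and FF comparison below, sex and PXR genotype cannot be told apart.

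Set per kilobase of merged exon, Plin2 was the most abundant of the 10 genes, at 759 CPM per kb over the 4 group means, and ranged from 525 to 987 over libraries. Plin2 encodes the main perilipin of droplets outside fat tissue. Lipa followed at 188 and Soat1 at 173 CPM per kb, and these did not keep their order, since in 8 of 18 libraries Lipa was not above Soat1. Nceh1 stood at 143 CPM per kb, below both in every library. Plin3 (56.3) and Hilpda (50.2 CPM per kb) overlapped too, with the order turned in 6 libraries. Pnpla2 (30.1), Dgat1 (5.92), Lipe (2.48) and Dgat2 (0.265 CPM per kb) then followed in the same order in all 18 libraries. Dgat2 had only 7 to 41 counts per library. Of the 10 genes, Plin2, Lipa, Soat1 and Nceh1 thus stood highest, and Dgat1, Lipe and Dgat2 lowest. Coats typical of fat cells were nearly absent: Plin1 had at most 14 counts in a library and Cidec 0 in all 18. The 7 adipocyte markers summed to 0.0425 to 0.69 CPM in all libraries, none passed the filter, and Adipoq had at most 4 counts in a library.

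**Figure D1:**
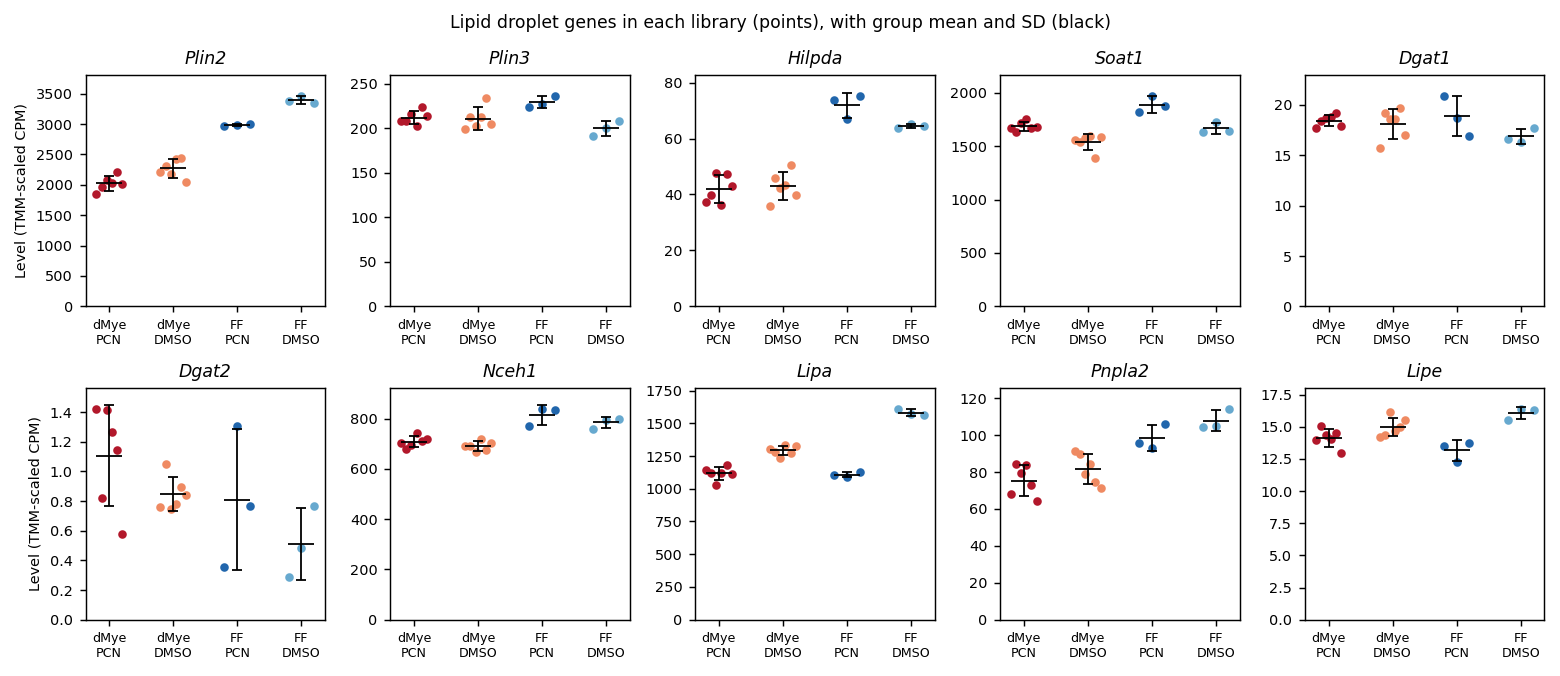
Each panel plots the level of 1 gene (y axis, TMM-scaled CPM, starting at 0) in each library (points) of the 4 groups (x axis), with the group mean and SD in black. Lipa stands at about the same level in dMye_PCN and FF_PCN (means 1118 and 1107 CPM) and highest in FF_DMSO (1582 CPM). Every dMye point of Plin2, Hilpda, Nceh1 and Pnpla2 lies below every FF point.

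With PCN, the lysosomal lipase gene Lipa fell in both genotypes, and the other called changes were smaller than its fall in FF. In dMye macrophages 0 members rose and 1, Lipa, fell; 2 of 10 (Lipa and Soat1) had groups that did not overlap. Over all genes, 2.08% were called changed there, 0.94% up and 1.14% down, and 2.27% had groups that did not overlap. In FF macrophages 2 members rose (Plin3 and Soat1), 2 fell (Lipa and Lipe), and 6 did not overlap, adding Plin2 and Hilpda. Over all genes the FF shares were 13.8% called, 6.82% up and 6.98% down, with 33.8% not overlapping. Of these 4 FF calls, 3 were lost without 1 or another library, given below. The median log2 fold change of the 10 members was -0.01 in dMye (all genes -0.01) and 0.10 in FF (all genes 0.01). Rises made up 45.2% of all calls in dMye and 49.4% in FF, and 31.2% and 38.2% under upper-quartile scaling.

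**Figure D2:**
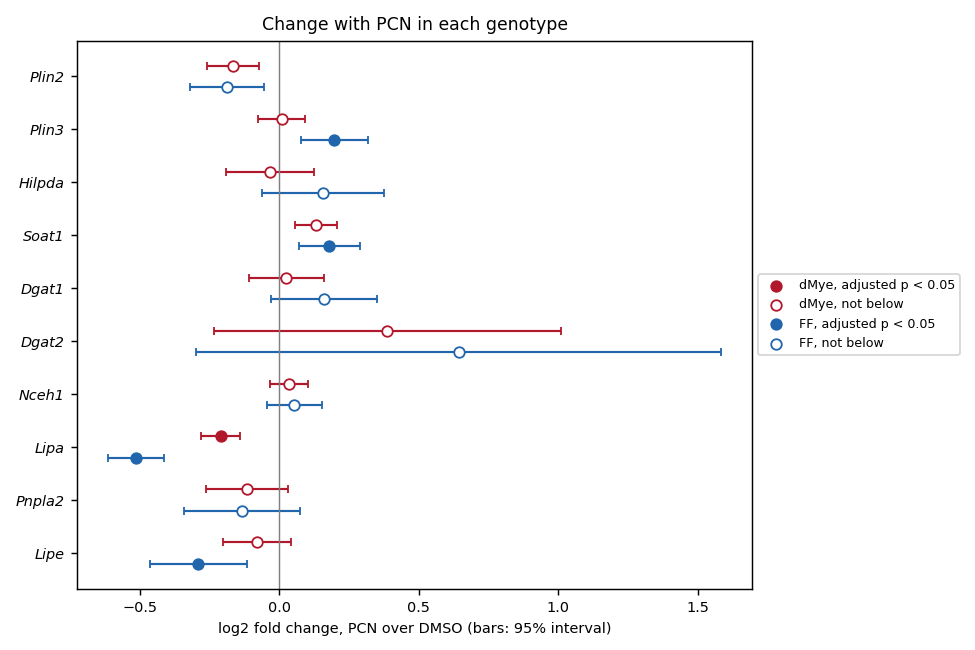
The log2 fold change with PCN (x axis, PCN over DMSO) is drawn for each gene (y axis) in dMye (red) and FF (blue) macrophages, with bars for the 95% interval and filled points for an adjusted p under 0.05. Lipa is filled in both genotypes, at -0.21 in dMye and -0.51 in FF, and its intervals do not overlap, while Plin3, Soat1 and Lipe are filled in FF and have intervals that overlap those in dMye.

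Lipa (chromosome 19, 34492318 to 34527474, minus strand) encodes lysosomal acid lipase, which frees cholesterol and fatty acids from engulfed lipoprotein. In dMye_PCN its lowest, median and highest levels were 1029, 1123 and 1178 CPM, against 1234, 1292 and 1334 CPM in dMye_DMSO. In FF_PCN its 3 libraries had 1108, 1089 and 1125 CPM, against 1610, 1574 and 1562 CPM in FF_DMSO. No PCN library of either genotype reached the lowest DMSO library of that genotype. The log2 fold change was -0.21 in dMye (SE 0.03, adjusted p = 0.0015), or 0.865 of the DMSO level, and -0.51 in FF (SE 0.05, adjusted p = 2.7e-07), or 0.700. Both calls held without any single library (highest adjusted p 0.0056 in dMye and 4.8e-06 in FF).

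The size of the fall in Lipa differed between genotypes. The PCN effect in dMye minus that in FF was 0.30 (SE 0.06, 95% interval 0.18 to 0.43, adjusted p = 0.011), and this was the 1 call among the 10 members for that difference, for which 1.42% of all genes were called, 0.746% up and 0.671% down. Leaving out each of the 18 libraries gave values from 0.29 to 0.33, with adjusted p from 0.0053 to 0.044. Under DMSO, Lipa stood at 1293 ± 36.2 CPM in dMye and 1582 ± 24.7 CPM in FF, and under PCN at 1118 ± 49.6 in dMye and 1107 ± 17.8 in FF (SD, n = 6 and 3). Thus the genotypes differed under DMSO (log2 fold change -0.29, SE 0.04, adjusted p = 1.3e-05). Under PCN the difference was 0.01, with a 95% interval of -0.07 to 0.10 and an adjusted p of 0.85. No other member passed this test, the nearest being Plin3 at -0.19 (SE 0.07, adjusted p = 0.21) and Lipe at 0.21 (SE 0.10, adjusted p = 0.40). The median of the 10 differences was -0.03, and of all genes -0.01.

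Macrophage and other marker genes moved with PCN in FF as well. Of 8 macrophage markers, 1 fell in dMye and 6 fell in FF, and none rose. Their summed level ran from 6100 to 6660 CPM in dMye_PCN, 6410 to 8570 in dMye_DMSO, 7330 to 7810 in FF_PCN and 10200 to 10800 in FF_DMSO. Most of that sum and of its difference was Lyz2, a lysozyme gene, at 3243 and 4040 CPM on average in dMye_PCN and dMye_DMSO and 4504 and 7209 CPM in FF_PCN and FF_DMSO. Mean levels in FF_PCN and FF_DMSO were 21.02 and 30.38 CPM for Mertk, 100.7 and 131.9 for Csf1r, and 105.9 and 125.8 for Adgre1. Those of Itgam were 249.9 and 301.5 CPM, and those of Fcgr1 were 38.58 and 46.66 CPM. Cd68 stood at 2539 CPM in FF_PCN and 2569 in FF_DMSO, and Cd14 at 44.6 CPM in FF_PCN and 40.1 in FF_DMSO. For the difference between the PCN effects, 0 of the 8 macrophage markers were called, and 1 of the 4 tested neutrophil markers was called up. No tested marker of the other lists was called for it. In these bulk samples fewer cells of a type and less RNA per cell cannot be told apart. Of 5 B cell markers, 0 fell in dMye and 4 in FF, with sums of 4.88 to 8.05, 4.73 to 7.62, 6.83 to 10.5 and 15.1 to 19.3 CPM over the same order of groups. Of 4 tested neutrophil markers 0 fell in dMye and 1 in FF, with sums of 12.1 to 14.4, 14.4 to 17.1, 20.9 to 23.6 and 32.1 to 35.6 CPM, and Ly6g was at 0 in all libraries. Most of these sums was 1 gene, Mmp8, at 10.2, 11.88, 18.75 and 30.4 CPM on average. The T cell markers (4 tested, sums of 0.979 to 3.53 CPM) and eosinophil and mast cell markers (2 of 6 tested, 1.02 to 2.58 CPM) had no call with PCN. Of 5 mesothelial markers 0 fell in dMye and 1 in FF, where the sums were 11.4 to 11.6 CPM in FF_PCN and 13.4 to 15.9 CPM in FF_DMSO. None of 5 fibroblast markers was called with PCN, but their sums did not overlap in FF, at 139 to 157 CPM in FF_PCN and 171 to 174 CPM in FF_DMSO. The part of these markers in the fall of Lipa was not tested.

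Among the coats, Plin2 (chromosome 4, 86648386 to 86670060, minus strand), which shields stored lipid from lipases, had lowest, median and highest levels of 1844, 2023 and 2211 CPM in dMye_PCN, against 2049, 2263 and 2441 CPM in dMye_DMSO. In FF_PCN it had 2961, 2989 and 2997 CPM, against 3371, 3467 and 3342 CPM in FF_DMSO. The groups overlapped in dMye and not in FF. Its log2 fold change of -0.17 in dMye (SE 0.05, adjusted p = 0.059) and -0.19 in FF (SE 0.06, adjusted p = 0.055) missed the threshold in both. Without dMye_DMSO 6 or dMye_PCN 5 it passed in dMye (adjusted p = 0.020 and 0.021). Of 8 other settings, it passed under 4 in dMye (adjusted p from 0.011 to 0.14 over the 8) and under 7 in FF (4.9e-04 to 0.053).

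Plin3 (chromosome 17, 56277476 to 56292873, minus strand), a cytosolic perilipin that coats nascent droplets, had 224.4, 227.2 and 236.9 CPM in FF_PCN, against 191.1, 200.8 and 208.5 CPM in FF_DMSO, with no overlap. It rose in FF by 0.20 on the log2 scale (SE 0.06, adjusted p = 0.023), a fold of 1.15. The call was lost without FF_DMSO 1 (adjusted p = 0.12), FF_DMSO 2 (0.061) or FF_PCN 3 (0.095), and under upper-quartile scaling (0.069) and with no filter (0.058). In dMye it averaged 212 ± 7.68 CPM under PCN and 211 ± 12.7 under DMSO. Hilpda (chromosome 6, 29272488 to 29275446, plus strand), a small droplet protein that inhibits PNPLA2, had 73.66, 66.85 and 75.33 CPM in FF_PCN, against 63.68, 65.22 and 64.61 CPM in FF_DMSO, groups that do not overlap. Its log2 fold changes of -0.03 in dMye (95% interval -0.19 to 0.12) and 0.16 in FF (-0.06 to 0.38) were not called.

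Of the acyltransferases, Soat1 (chromosome 1, 156424525 to 156474331, minus strand), which esterifies cholesterol for storage, was higher in every PCN library than in any DMSO library of the same genotype. Its lowest, median and highest levels were 1635, 1677 and 1751 CPM in dMye_PCN, against 1391, 1566 and 1598 CPM in dMye_DMSO. In FF_PCN it had 1819, 1974 and 1874 CPM, against 1630, 1730 and 1644 CPM in FF_DMSO. It rose in FF by 0.18 on the log2 scale (SE 0.05, adjusted p = 0.023), and had 0.13 in dMye (SE 0.04, adjusted p = 0.065), which passed with DESeq2 (0.018). The FF call was lost without FF_DMSO 1 (adjusted p = 0.15), FF_DMSO 3 (0.13), FF_PCN 1 (0.052), FF_PCN 2 (0.17) or FF_PCN 3 (0.085), under upper-quartile scaling (0.066) and with no filter (0.054). Dgat1 (chromosome 15, 76502015 to 76511953, minus strand) and Dgat2 (chromosome 7, 99153658 to 99182719, minus strand), which catalyse the last step of triglyceride synthesis, were not called. Dgat1 averaged 18.5 ± 0.592 and 18.1 ± 1.48 CPM in dMye_PCN and dMye_DMSO, and 18.9 ± 1.99 and 16.9 ± 0.771 CPM in FF_PCN and FF_DMSO. Dgat2 averaged 1.11 ± 0.342 and 0.845 ± 0.115 CPM in the dMye groups, and 0.810 ± 0.478 and 0.512 ± 0.243 CPM in the FF groups. The interval for Dgat2 with PCN ran from -0.23 to 1.01 in dMye and from -0.30 to 1.58 in FF, and a 2-fold rise lay inside both.

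Nceh1 (chromosome 3, 27182965 to 27284608, plus strand), a neutral hydrolase of cholesteryl ester, was narrowly bounded. Its log2 fold change with PCN was 0.03 in dMye (95% interval -0.04 to 0.10) and 0.05 in FF (-0.05 to 0.15). Of the triglyceride lipases, Lipe (chromosome 7, 25379527 to 25398710, minus strand), which cleaves diglyceride, had 13.52, 12.23 and 13.72 CPM in FF_PCN, against 15.53, 16.39 and 16.33 CPM in FF_DMSO, with no overlap. It fell in FF by 0.29 on the log2 scale (SE 0.08, adjusted p = 0.023). The call was lost without FF_DMSO 2 (adjusted p = 0.070), FF_DMSO 3 (0.061) or FF_PCN 2 (0.11). In dMye Lipe was at 14.2 ± 0.710 CPM under PCN and 15.0 ± 0.736 CPM under DMSO (log2 fold change -0.08, adjusted p = 0.55). An exon of Lipe overlaps 4732471J01Rik on the opposite strand, and reads of the pair cannot be told apart where strand was not counted. Pnpla2 (chromosome 7, 141455198 to 141460743, plus strand), the first lipase of stored triglyceride, had a log2 fold change of -0.12 in dMye (95% interval -0.26 to 0.03) and -0.13 in FF (-0.34 to 0.07), neither of them called.

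Between the genotypes, Plin2, Hilpda, Nceh1 and Pnpla2 were lower in dMye than in FF under both agents. Under PCN 5 of the 10 members fell and 0 rose in dMye relative to FF, the fifth being Soat1, and the same 5 had groups that did not overlap. Over all genes under PCN, 27.6% were called, 16.2% up and 11.4% down, and 27.5% did not overlap. Under DMSO 5 fell and 0 rose, the fifth being Lipa, and 6 did not overlap, adding Soat1. Over all genes under DMSO, 21.8% were called, 13.9% up and 7.85% down, and 24.7% did not overlap. The median log2 fold change of the members was -0.14 under PCN and -0.15 under DMSO, beside 0.00 and 0.02 over all genes. Rises made up 58.8% and 64% of all calls under PCN and DMSO, and 74.8% and 76% under upper-quartile scaling. The comparisons under PCN and under DMSO use different libraries.

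**Figure D3:**
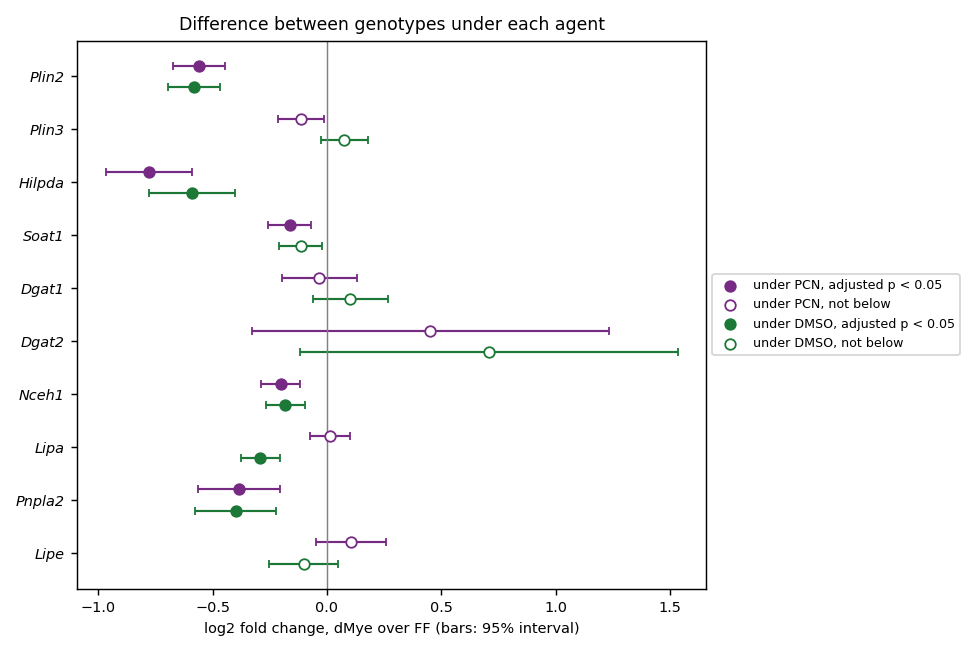
The log2 fold change between genotypes (x axis, dMye over FF) is drawn for each gene (y axis) under PCN (purple) and DMSO (green), with bars for the 95% interval and filled points for an adjusted p under 0.05. Plin2, Hilpda, Nceh1 and Pnpla2 are filled and below 0 under both agents, and Lipa is at 0.01 under PCN and -0.29 under DMSO.

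In Plin2 the highest of the 12 dMye libraries, 2441 CPM, was below the lowest of the 6 FF libraries, 2961 CPM. The log2 fold change was -0.56 under PCN (SE 0.05, adjusted p = 5.0e-08) and -0.58 under DMSO (SE 0.05, adjusted p = 3.1e-08), or 0.679 and 0.669 of the FF level. Hilpda had the lowest ratios. Its lowest, median and highest levels were 36.33, 41.47 and 47.71 CPM in dMye_PCN and 35.88, 42.76 and 50.43 CPM in dMye_DMSO, below every FF library given above. The log2 fold change was -0.78 under PCN (SE 0.09, adjusted p = 7.8e-07) and -0.59 under DMSO (SE 0.09, adjusted p = 4.1e-05). Both genes kept their calls when any single library was left out, the highest adjusted p being 1.2e-06 for Plin2 and 5.2e-04 for Hilpda, each under DMSO.

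Pnpla2 had lowest, median and highest levels of 64.27, 76.15 and 84.15 CPM in dMye_PCN, against 95.85, 92.9 and 106.2 CPM in FF_PCN. In dMye_DMSO they were 71.14, 81.67 and 91.36 CPM, against 104.2, 104.9 and 114.2 CPM in FF_DMSO. The groups did not overlap under either agent, and the log2 fold change was -0.38 under PCN (SE 0.09, adjusted p = 0.0019) and -0.40 under DMSO (SE 0.09, adjusted p = 0.0015). Thus the lipase gene Pnpla2 and the gene of its inhibitor, Hilpda, were both lower in dMye libraries. Nceh1 had 678.8, 705.6 and 741.7 CPM (lowest, median and highest) in dMye_PCN, against 770, 838.5 and 834.7 CPM in FF_PCN. In dMye_DMSO it had 667.9, 691.2 and 719.6 CPM, against 759.6, 794.5 and 800.1 CPM in FF_DMSO. The groups did not overlap here either, and the log2 fold change was -0.20 under PCN (SE 0.04, adjusted p = 6.9e-04) and -0.18 under DMSO (SE 0.04, adjusted p = 0.0021).

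Soat1 fell by 0.16 on the log2 scale in dMye relative to FF under PCN (SE 0.04, adjusted p = 0.0088), a call lost without FF_PCN 2 (adjusted p = 0.081) and under upper-quartile scaling (0.080). Under DMSO it had -0.11 (SE 0.04, adjusted p = 0.072). That value passed without dMye_DMSO 4 (0.032) or dMye_DMSO 6 (0.038), and narrowly without dMye_DMSO 3 (0.050 when rounded). It also passed under RLE scaling (0.039), with no filter (0.038) and with DESeq2 (0.023). Plin3 (-0.11 under PCN and 0.08 under DMSO), Dgat1 (-0.03 and 0.10), Dgat2 (0.45 and 0.71) and Lipe (0.11 and -0.10) were not called under either agent. With DESeq2, Plin3 passed under PCN (-0.12, adjusted p = 0.038). The intervals of Dgat2 ran from -0.33 to 1.23 under PCN and from -0.12 to 1.53 under DMSO.

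Markers of connective tissue and of the peritoneal lining also differed with genotype. All 5 fibroblast markers rose in dMye relative to FF under both agents, with summed levels of 548 to 636 CPM in dMye_PCN, 550 to 696 in dMye_DMSO, 139 to 157 in FF_PCN and 171 to 174 in FF_DMSO. All 5 mesothelial markers rose too, with sums of 70.8 to 87.7, 81.4 to 93.8, 11.4 to 11.6 and 13.4 to 15.9 CPM over the same order of groups. Under PCN 6 of 8 macrophage markers were higher in dMye and 1 lower, and under DMSO 2 were higher and 2 lower. Of B cell markers 1 of 5 was lower under PCN and 4 of 5 under DMSO, and of both the 4 T cell and the 4 neutrophil markers tested 1 was lower under PCN and 2 under DMSO. Of the 2 eosinophil and mast cell markers tested, 1 was higher in dMye under PCN and 0 were called under DMSO. The part of these cells in the genotype differences of the droplet genes was not tested.

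Ratios of counts within a library put pairs of members side by side without any scaling between libraries, and are given as a description. The ratio of Lipa (lysosomal) to Nceh1 (neutral) averaged 1.58 in dMye_PCN, 1.87 in dMye_DMSO, 1.36 in FF_PCN and 2.02 in FF_DMSO. That of Soat1 (esterifying) to Nceh1 (hydrolysing) was 2.38, 2.23, 2.32 and 2.13 over the same groups. PCN groups thus had the lower ratio of Lipa to Nceh1 and the higher mean ratio of Soat1 to Nceh1 in both genotypes. The ratio of Plin2 to Plin3 was 9.54 in dMye_PCN, 10.8 in dMye_DMSO, 13.0 in FF_PCN and 17 in FF_DMSO. Its libraries ran from 8.87 to 10.1, 10 to 11.4, 12.7 to 13.2 and 16 to 17.6, so that only the dMye groups overlapped. The ratio of Pnpla2 to Lipe was 5.32, 5.48, 7.48 and 6.70.

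**Figure D4:**
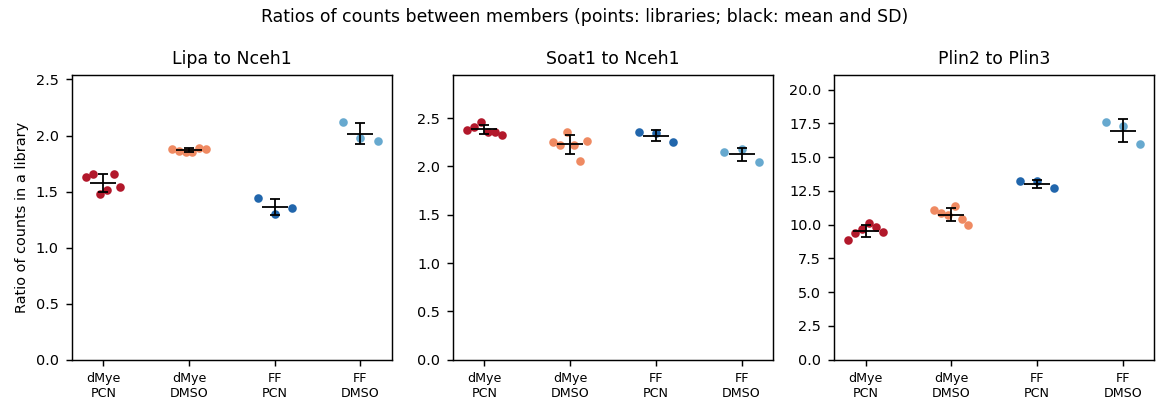
Each panel plots the ratio of the counts of 2 genes within a library (y axis, starting at 0) for each library (points) of the 4 groups (x axis), with the group mean and SD in black. The ratio of Lipa to Nceh1 is lower in the PCN groups (means 1.58 and 1.36) than in the DMSO groups (1.87 and 2.02), and that of Plin2 to Plin3 is highest in FF_DMSO (17).

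Beyond the 10 members, 47 genes of droplet and acylglycerol pathways were listed, 45 were in the table and 35 were tested. With PCN 0 of the 35 rose and 1 fell in dMye, and 4 rose and 9 fell in FF, beside the background shares given above. Of lipolysis and its regulators (9 of 11 tested), 4 fell in FF: Angptl4, an inhibitor of lipoprotein lipase, Lpl, that lipase itself, G0s2, an inhibitor of PNPLA2, and the hydrolase gene Abhd12. Angptl4 was at 1.83 ± 1.34 CPM in FF_PCN and 9.94 ± 1.22 CPM in FF_DMSO (log2 fold change -2.45, SE 0.33, adjusted p = 3.0e-05), and the value was -3.17 without FF_PCN 3. Lpl was at 402.5 ± 14.6 CPM in FF_PCN and 542 ± 16.0 CPM in FF_DMSO (-0.43, SE 0.09, adjusted p = 0.0021), and Abhd12 fell by 0.29 on the log2 scale (adjusted p = 0.0059). G0s2 was at 0.90 ± 0.143 CPM in FF_PCN and 1.96 ± 0.527 CPM in FF_DMSO (adjusted p = 0.025), a call lost without FF_DMSO 1 (0.11), FF_DMSO 3 (0.070), FF_PCN 2 (0.098) or FF_PCN 3 (0.052) and in limma-voom (0.051). Abhd5, the activator of PNPLA2, stood at 71.5 ± 3.43 and 70.3 ± 3.76 CPM in dMye_PCN and dMye_DMSO and at 71.9 ± 1.13 and 67.5 ± 0.714 CPM in FF_PCN and FF_DMSO, and was not called in any comparison.

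Of the other synthesis genes (15 of 20 tested), 1 fell in dMye with PCN, and 4 rose and 3 fell in FF. Agpat1, an acyltransferase that makes phosphatidic acid, was the gene called in both genotypes. It was at 62.5 ± 2.81 CPM in dMye_PCN and 70.9 ± 3.75 CPM in dMye_DMSO (-0.18, SE 0.05, adjusted p = 0.040), a call lost without dMye_DMSO 1, 2, 4 or 5 or dMye_PCN 1, 4, 5 or 6 (adjusted p up to 0.10), with no filter (0.069) and in a fit on the 2 groups alone (0.074). In FF it was at 49.8 ± 1.23 CPM under PCN and 69.3 ± 4.79 CPM under DMSO (-0.48, SE 0.07, adjusted p = 2.9e-05). The related Agpat3 fell in FF (-0.33, adjusted p = 0.0024), and Lpin2, a phosphatidate phosphatase that supplies diglyceride, rose (0.38, adjusted p = 0.0050). Soat2, the second cholesterol acyltransferase, was at 83.3 ± 6.28 CPM in FF_PCN and 61.9 ± 4.41 CPM in FF_DMSO (0.43, SE 0.10, adjusted p = 0.0065), and its call was lost without FF_DMSO 3 (0.059) or FF_PCN 2 (0.052). Smaller changes in FF were those of the acyl-CoA synthetase genes Acsl4 (0.21, lost without FF_DMSO 3, adjusted p = 0.071) and Acsl5 (-0.21, lost without FF_DMSO 2, 0.053, or FF_DMSO 3, 0.060), and of Agpat4 (0.27, lost without FF_DMSO 1, 0.071, FF_DMSO 3, 0.082, or FF_PCN 2, 0.068).

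Of droplet biogenesis genes (9 of 10 tested), 0 changed in dMye and 2 fell in FF with PCN: Bscl2 (seipin, which shapes budding droplets) by 0.32 (adjusted p = 0.0019) and Hsd17b11, a droplet enzyme, by 0.31 on the log2 scale (adjusted p = 0.0014). Of the other coat and fusion genes, Plin4 and Cideb alone were tested, at 0.135 to 0.550 CPM on average in each group, and neither was called in any comparison. The difference between the PCN effects was called for 1 of the 35 genes, beside 1.42% of all genes. This was Angptl4, at 1.93 (SE 0.40, adjusted p = 0.020), with a range of 1.54 (without FF_PCN 1) to 2.66 (without FF_PCN 3) when 1 library was left out. It was at 2.86 ± 0.423 CPM in dMye_PCN and 4.12 ± 0.883 CPM in dMye_DMSO. That call was lost without FF_DMSO 1 (adjusted p = 0.061), FF_DMSO 3 (0.057) or FF_PCN 2 (0.066).

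Between the genotypes, 6 of the 35 were higher and 10 lower in dMye under PCN, and 3 higher and 7 lower under DMSO. Over all genes 16.2% were called higher and 11.4% lower under PCN, and 13.9% and 7.85% under DMSO. Mgll, which cleaves monoglyceride, was higher in dMye under both agents, at 21.7 ± 0.866 CPM in dMye_PCN, against 15.5 ± 1.71 CPM in FF_PCN (0.49, SE 0.08, adjusted p = 6.2e-05). Under DMSO it was at 21.6 ± 1.33 CPM in dMye and 16.0 ± 1.24 CPM in FF (0.43, SE 0.08, adjusted p = 2.8e-04). Agpat3 was higher too, by 0.61 under PCN (adjusted p = 1.1e-07) and 0.31 under DMSO (adjusted p = 5.0e-04). Abhd6, another monoglyceride hydrolase, had 0.88 under PCN (adjusted p = 0.026) and 1.34 under DMSO (adjusted p = 0.0014). Its PCN call was lost without FF_PCN 1 (0.16), FF_PCN 3 (0.093) or dMye_PCN 3 (0.055). Under PCN, Agpat1 (0.33), Acsl5 (0.19) and Bscl2 (0.22, lost without FF_PCN 2, adjusted p = 0.057) were the other genes higher in dMye.

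Lower in dMye under both agents were Lpin2 (-0.55 under PCN and -0.32 under DMSO), Pcyt1a (-0.21 and -0.22), Acsl1 (-0.23 and -0.25), Abhd12 (-0.19 and -0.33) and Lpl (-0.24 and -0.66). Pcyt1a makes phosphatidylcholine for the droplet surface, and Acsl1 activates fatty acids. Lpl was at 341 ± 40.7 CPM in dMye_PCN against 402.5 ± 14.6 CPM in FF_PCN, and at 342 ± 25.5 CPM in dMye_DMSO against 542 ± 16.0 CPM in FF_DMSO. Under PCN the Abhd12 call was lost without FF_PCN 1 (adjusted p = 0.16) and the Lpl call without FF_PCN 1 (0.12) or FF_PCN 3 (0.096), and both under upper-quartile scaling (0.11 and 0.085). Faf2, Ldah, Acsl4, Agpat4 and Soat2 were called lower under PCN, at log2 fold changes of -0.29 to -0.15, and not under DMSO, at -0.12 to 0.05. The difference of the PCN effects, which is also the difference between these fold changes, was called for none of the 5 (adjusted p = 0.21 to 0.93). Upper-quartile scaling ended the PCN calls of the first 4. Those of Faf2, Ldah, Agpat4 and Soat2 were lost without FF_PCN 1 and without FF_PCN 2, at adjusted p of 0.13, 0.19, 0.14 and 0.10 without the second. Faf2 was also lost without dMye_PCN 3, Ldah and Agpat4 without FF_PCN 3, Ldah without dMye_PCN 2, 3, 4 or 5, and Agpat4 without dMye_PCN 2 or 4. With no filter Ldah (0.089) and Agpat4 (0.073) were lost, and in a fit on the 2 groups alone Faf2 (0.055), Agpat4 (0.061) and Lpl (0.062). Under DMSO, Angptl4 fell by 1.27 on the log2 scale (adjusted p = 7.0e-04) and Lpin1 fell by 0.26 (adjusted p = 0.037), the call of Lpin1 being lost without FF_DMSO 1 (0.076), FF_DMSO 2 (0.072), FF_DMSO 3 (0.12) or dMye_DMSO 2 (0.057) and under upper-quartile scaling (0.069).

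**Figure D5:**
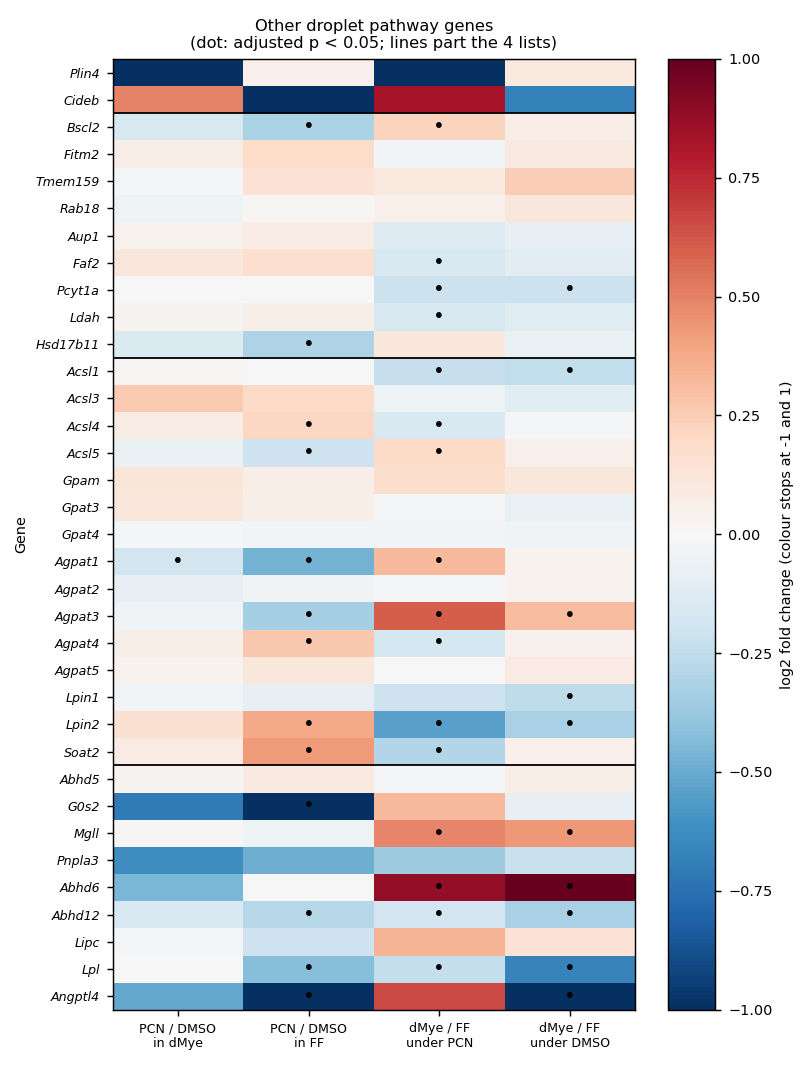
Colour gives the log2 fold change of the 35 other tested pathway genes (rows, parted by lines into coats, biogenesis, synthesis and lipolysis) in 4 comparisons (columns, the group on top of the fold change named first); colours stop at -1 and 1, and a dot marks an adjusted p under 0.05. Dots fill 1 row for PCN in dMye (Agpat1) and 13 rows for PCN in FF.

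The genes whose pattern over the 18 libraries lay nearest to a member were found by the root mean square difference of mean-centred log2 levels, as a description with no test. Nearest to Plin2 were Fos (0.101), Klf10 (0.111) and Phospho1 (0.114). The median for Plin2 was 0.324, taken, like those below, over tested genes with a mean of at least 1 CPM. Nearest to Hilpda were Slamf8 (0.129), Ccl5 (0.143) and Smox (0.147), with a median of 0.374. Nearest to Lipa were Ugt1a7c (0.049), Evi2b (0.0648) and Elmo2 (0.0712), with a median of 0.251; Ugt1a7c shares exons with its gene family, so its counts are uncertain. Pnpla2 lay nearest to Igsf6 (0.108), Man2b1 (0.116) and Acadl (0.122). Soat1 and Nceh1 varied little and had closer neighbours, Eif4g2 (0.0215) and Caprin1 (0.037). Plin3 lay nearest to Rad23b (0.035) and Lipe to Scarb2 (0.0643). The points share libraries and depth, and 42% of the variance over all genes parts the genotypes.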

How the data were processed

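Total RNA from 18 libraries of cultured peritoneal macrophages was sequenced. The authors deposited expected counts, that is estimated read counts per gene that need not be whole, in 1 table, on build mm10 per the submitters' processing notes. Which aligner, annotation and strand setting produced the counts was not given in the sources used here. Expected counts were rounded to whole numbers, which left 3287 of 21831 rows at 0 in every library. The table's 26 date-like and 2 repeated symbols hold no gene named here. The 10 genes, the pathway lists and the marker lists were chosen with earlier results of these data known. All 10 genes were always named, with each pathway gene called in a comparison, the 3 nearest genes of each called member (mean of at least 1 CPM, pseudocount 0.5 CPM), and Nr1i2 and 4 Y-linked genes as checks. The further gene deleted in all 4 groups is not reported here.

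One edgeR 4.0.16 (R 4.3.3) robust quasi-likelihood fit held 18 libraries in 4 groups with TMM scaling, no covariates and the filterByExpr filter, which left 13409 genes with a biological coefficient of variation of 9.69%. Its 5 contrasts were PCN against DMSO in dMye and in FF, dMye against FF under PCN and under DMSO, and the difference of the PCN effects. Calls are Benjamini-Hochberg adjusted p under 0.05 over all genes tested. The SE is |log2 fold change| over the square root of F, and intervals are at 95%. Levels are TMM-scaled CPM, mean ± SD. As alternatives, RLE or upper-quartile scaling replaced TMM, the filter was dropped or set to 1 CPM in 6 libraries, and the other tools and fits were DESeq2 1.42.0, limma-voom (limma 3.58.1), no robust estimation, fits on the groups compared, and leaving out each library. Coordinates and exon lengths are from GENCODE M21 on GRCm38. No replicate pair agreed within sampling noise.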

Additional observations from a re-analysis of the deposited data

Results flagged for a closer look

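Soat1 in library dMye_DMSO 5 was 1390 CPM, the lowest of its group of 6 and farther from the next library than Dixon's 95% limit allows; the other 5 libraries ran from 1535 to 1598 CPM. In all, 20 groups of 6 were examined for the 10 genes and 1 was singled out, where chance gives about 1 in 20. This library also stood apart over all genes, and without it Soat1 with PCN in dMye remained not called.

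The change of Lipa with PCN differed between genotypes, by 0.305 on the log2 scale (dMye minus FF, SE 0.06, adjusted p = 0.011). It was lower with PCN in both, by -0.21 in dMye and -0.51 in FF. Macrophage markers moved in the same comparisons, 1 of 8 falling in dMye and 6 of 8 in FF. For the difference between these effects 0 of 8 were called, beside 1.42% of all genes. Of 4 tested neutrophil markers 1 was called up for it, the direction of Lipa. Uncalled macrophage markers can still differ. Mean Lyz2, Mertk, Csf1r, Adgre1 and Itgam fell with PCN in both genotypes, and more in FF. Mean Fcgr1 and Cd68 were lower with PCN in FF and higher in dMye. Mean Cd14 rose in both, and more in FF. The part of the markers in the difference of Lipa was not tested.

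The change of Angptl4 with PCN differed between genotypes by 1.93 on the log2 scale (dMye minus FF, SE 0.40, adjusted p = 0.020), and its mean in FF_PCN, 1.83 CPM, came from libraries between 0.633 and 3.27 CPM.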

How the results depend on the processing

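Of 928 values of the 10 genes under other settings or with a library left out, 864 kept their direction and their side of the threshold, 17 lost a call, 21 gained 1 and 26 changed sign; of 669 values of other pathway genes 603 kept both and 66 lost a call. The falls of Lipa with PCN in both genotypes, its difference between them, and the lower Plin2, Hilpda, Nceh1 and Pnpla2 in dMye under both agents were called under all of them. For PCN in dMye, 2 members were called under RLE scaling, upper-quartile scaling and the filter of 1 CPM in 6 libraries and 3 with DESeq2, and over all genes 584 were called with DESeq2 and 144 in the fit on the 2 groups alone, against 279. For the difference of the PCN effects DESeq2 called 426 genes, against 190. The cause was not tested. Among the settings that kept all libraries, signs changed with upper-quartile scaling for Plin3 with PCN in dMye (-0.0103) and Dgat1 between genotypes under PCN (0.0213), and with no filter for Nceh1 in the difference of PCN effects (0.00865).

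With each library left out in turn, members called ran from 1 to 2 for PCN in dMye, 2 to 3 in FF, 4 to 5 between genotypes under PCN, 5 to 6 under DMSO and 1 to 1 for the difference. Genes called ran from 137 to 371 for PCN in dMye, 1202 (without FF_DMSO 1) to 1437 in FF, 2625 to 3875 between genotypes under PCN, 2056 to 3313 under DMSO and 42 to 261 for the difference. Log2 values whose sign changed ran, for PCN in dMye, from -0.00902 to 0.0376 for Plin3, -0.0809 to 0.0135 for Hilpda and -0.0139 to 0.0453 for Dgat1. Between genotypes under PCN they ran from -0.108 to 0.0497 for Dgat1 and -0.00614 to 0.0364 for Lipa. For the difference they ran from -0.00518 to 0.0559 for Plin2, -0.65 to 0.29 (without FF_PCN 2) for Dgat2, at -0.26 with all libraries, -0.0403 to 0.0165 for Nceh1 and -0.0184 to 0.0877 for Pnpla2. A fit without a library assumes that the remaining libraries of a group vary like the others. No paired analysis was possible because the replicate numbers only name libraries. Dgat2, at 7 to 41 counts per library, is limited by depth.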
